A study of Mus musculus with 16 samples.

Results

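The genes described here encode the proteins that the liver releases into plasma: serpins, apolipoproteins, complement components, coagulation factors, carrier proteins and serum amyloid A. They were chosen by gene name, as the protein-coding rows of the deposited liver RNA-seq tables whose symbols belong to these families. The name rule took 55 of the 5205 genes in the tables, 25 of 2558 in the table of TSP1F/F mice and 48 of 3399 in that of TSP1ΔPf4 mice, with 18 genes in both, 7 only in the first and 30 only in the second. Of these 55, Apoo, Mblac1, Serpinh1, Serpinb6a, Serpinb6b and Serpina3g carry such a name but encode proteins that act inside cells, so the label does not hold for them. They are counted among the 25 and 48 genes, with the counts over secreted proteins given beside the first results, and are described apart. Another 2 rows with a matching name, C4a and Serpina4-ps1, are not protein coding in the tables and were left out.

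Livers of 16 male C57BL6 mice were sequenced, 4 mice in each of 4 groups. All mice carried floxed alleles of Thbs1, the gene of thrombospondin 1 (TSP1). TSP1F/F mice were the littermate controls, named WT in the labels. TSP1ΔPf4 mice, named KO, also carried Pf4-Cre, driven by the promoter of platelet factor 4 to delete Thbs1 in megakaryocytes and so in platelets, and hepatocytes are not its target. Each genotype was fed a low-fat (LF) diet or the AMLN diet, rich in fat, fructose and cholesterol, for 32 weeks. Both lines are listed by the study with an age of 8 weeks, and whether this was their age when feeding began is not stated there.

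Hepatocytes make most plasma proteins, and several of these transcripts are among the most abundant in liver. Transcription factors such as HNF4 and C/EBP maintain their expression. In the acute phase response, interleukin 6 acts through STAT3 and interleukin 1 through NF-kB and C/EBP to raise some of these genes, such as serum amyloid A and fibrinogen (positive acute phase proteins), and to lower others, such as transthyretin and transferrin (negative acute phase proteins).

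The deposited tables, 1 per genotype, hold only rows with an unadjusted p under 0.05 for the diet. Diet differences of the listed genes are therefore descriptions, and a gene absent from one table was not analysed here in that genotype. Levels are counts scaled to the library total (CPM). Totals ran from 17127965 to 39753019, and AMLN libraries were on the whole deeper. In both genotypes LF replicate 3 stood apart: the listed genes took 36.1% of the TSP1F/F library against 19.9% to 24.3% in the other LF mice, and 65.3% of the TSP1ΔPf4 library against 45.8% to 51.0%. Rows of mitochondrially encoded genes, listed only for TSP1ΔPf4 mice, took 9.68% to 13.9% of the LF and 3.51% to 5.40% of the AMLN libraries. The targeted gene Thbs1 is listed for TSP1F/F mice alone, at 0.313 to 1.82 CPM on LF and 1.94 to 13.3 CPM on AMLN, so liver RNA does not check the deletion here.

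Most of the plasma protein genes listed for each genotype had lower means on the AMLN diet than on LF. The mean was lower for 16 of 25 genes in TSP1F/F mice, where 32.5% of all listed rows were lower, and for 39 of 48 in TSP1ΔPf4 mice, against 55.8% of all listed rows. All 4 AMLN mice lay under all 4 LF mice for 10 of 25 genes in TSP1F/F mice (13.3% of all rows) and for 31 of 48 in TSP1ΔPf4 mice (27.3% of all rows). Counting only genes of secreted proteins, 15 of 20 and 38 of 45 had lower means, and 9 and 30 of them were lower without overlap. The reverse order was found for 4 of 25 (33.9% of all rows) and 1 of 48 (21.4% of all rows). Without LF replicate 3, lower without overlap were 11 of 25 and 32 of 48 genes, against 14.7% and 28.5% of all rows. Leaving out a mouse can only keep or raise such counts, so they do not check the part of that mouse.

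The listed plasma protein genes together made up 3.22%, 3.05%, 4.44% and 3.42% of the 4 LF libraries of TSP1F/F mice and 1.93%, 2.13%, 1.02% and 1.95% of the AMLN libraries. Every AMLN mouse was below every LF mouse, with AMLN replicate 3 the lowest. In TSP1ΔPf4 mice, whose table lists more of these genes, they made up 8.42%, 8.55%, 12.4% and 9.25% of the LF libraries and 6.21%, 4.76%, 4.97% and 6.60% of the AMLN libraries. Here too the groups did not overlap, and LF replicate 3 was the highest. The means were 3.53% ± 0.626 (SD, n = 4) on LF and 1.76% ± 0.500 on AMLN in TSP1F/F mice, and 9.65% ± 1.85 and 5.64% ± 0.905 in TSP1ΔPf4 mice. Without LF replicate 3 the LF means were 3.23% and 8.74%.

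With edgeR's quasi-likelihood test and a call at a Benjamini-Hochberg adjusted p under 0.05 with an absolute log2 fold change over 0.25, 0 of 25 plasma protein genes were called for the diet in TSP1F/F mice, where 2.48% of the rows tested were called. An unadjusted p under 0.05 was reached by 19 of the 25 genes (80.2% of all rows), and DESeq2 called 11 with its own size factors (35.4% of all rows) and 7 with those of the authors (26.9% of all rows). In TSP1ΔPf4 mice 1 of 47 genes tested, Apom, was called, against 2.98% of rows, and 42 had an unadjusted p under 0.05 (85.8% of all rows). There DESeq2 called 14 with its own size factors, 6 higher and 8 lower (44.5% of all rows, 1010 higher and 366 lower). With the authors' size factors it called 25, 3 higher and 22 lower (34.7% of all rows, 399 higher and 674 lower).

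The median log2 fold change, AMLN over LF, was -0.68 for the plasma protein genes and 1.15 for all rows tested in TSP1F/F mice. In TSP1ΔPf4 mice it was -0.61 for the plasma protein genes and -0.54 for all rows. Over the secreted proteins alone the medians were -0.75 and -0.61. Scaling by TMM over the listed rows moved the medians of plasma protein genes and all rows to -0.80 and 0.97 in TSP1F/F mice and to -0.30 and -0.21 in TSP1ΔPf4 mice, and left the number of plasma protein genes with a negative value at 16 and 39. Among rows with a negative value alone, scaled by library totals, the medians were -0.81 and -0.83 in TSP1F/F mice. In TSP1ΔPf4 mice they were -0.67 and -0.85, so the lowered plasma protein genes did not fall more than other lowered rows. The plasma protein genes were far more abundant than most listed genes. Their median mean FPKM, a level per length of transcript, was 80.8 against 1.17 over all rows in TSP1F/F mice and 262 against 4.53 in TSP1ΔPf4 mice.

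**Figure D1:**
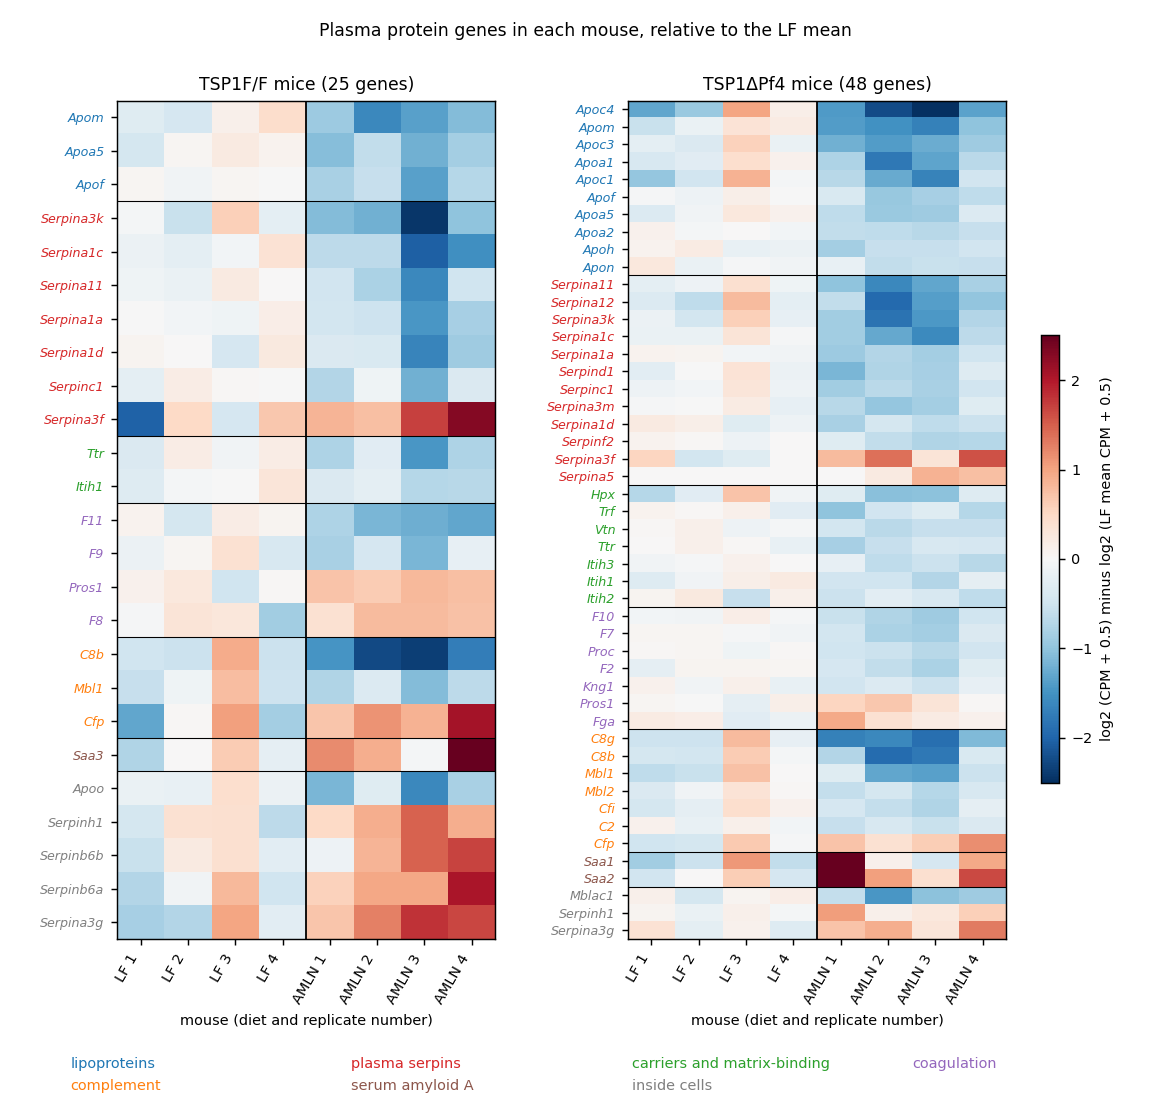
Each row is a plasma protein gene and each column a mouse; colour gives the log2 of CPM plus 0.5 relative to the LF mean of that gene, and ends at 2.5 in either direction. Gene names are coloured by role. Blue on the right of each panel marks genes lower on AMLN, 16 of 25 in TSP1F/F mice and 39 of 48 in TSP1ΔPf4 mice.

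**Figure D2:**
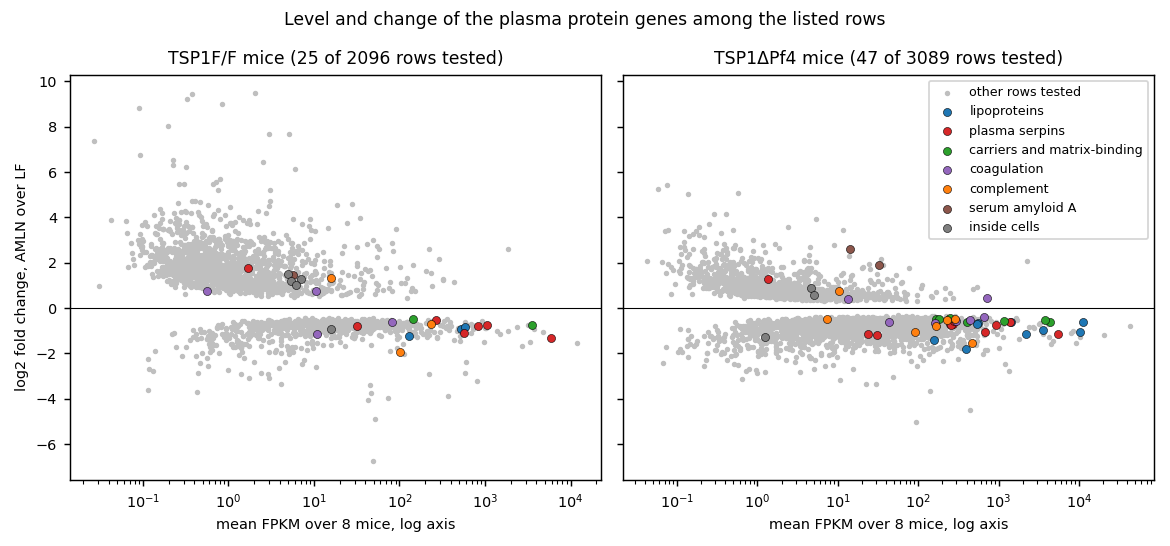
Each point is a gene tested, with mean FPKM over the 8 mice of a genotype on a log axis and the log2 fold change, AMLN over LF, on the other. Grey points are other listed rows. The coloured plasma protein genes with high FPKM lie below 0, except Fga in TSP1ΔPf4 mice; the empty band around 0 follows from the selection of rows before deposit.

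The diet differences were accompanied by differences in cell type markers. Of 15 hepatocyte markers, 6 were listed for TSP1F/F mice and all were lower on AMLN, their summed level going from 5656 to 7480 CPM on LF to 2543 to 4223 CPM on AMLN. For TSP1ΔPf4 mice 4 were listed and 3 were lower, the sum going from 3572 to 4979 CPM to 2395 to 3040 CPM, while Hnf4a was higher at 429 against 282 CPM. The abundance of these markers fits the label of liver. All 11 listed monocyte-derived macrophage markers were higher in TSP1F/F mice (85.0 to 448 CPM on LF, 506 to 2508 CPM on AMLN) and all 10 in TSP1ΔPf4 mice (45.3 to 111 CPM, then 134 to 239 CPM). In bulk liver, fewer hepatocytes and less RNA per hepatocyte cannot be told apart, and the part of these markers in the plasma protein values was not tested.

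The other marker lists were shorter in the tables. Kupffer cell markers were higher for 4 of 6 and 3 of 4 listed genes in TSP1F/F and TSP1ΔPf4 mice, stellate cell markers for 7 of 7 and 4 of 4, with Timp1 at 0 in all TSP1F/F LF mice, endothelial markers for 3 of 3 and 2 of 3, and cholangiocyte markers for 4 of 4 and 2 of 2. T cell markers were higher for 3 of 3 and 1 of 1. Neutrophil markers (3 of 3), B cell markers (1 of 1) and platelet markers (1 of 1, Pf4) were listed for TSP1F/F mice only and were higher. Red blood cell markers were higher for 2 of 2 in TSP1F/F mice and lower for 1 of 1 in TSP1ΔPf4 mice.

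Apolipoproteins carry lipid in plasma and steer its exchange and uptake. All 3 listed for TSP1F/F mice and all 10 listed for TSP1ΔPf4 mice had lower means on AMLN (32.5% and 55.8% of all rows). The groups did not overlap for 3 of 3 and 9 of 10 (13.3% and 27.3% of all rows were lower without overlap). Apom carries sphingosine 1-phosphate on high-density lipoprotein (HDL). In TSP1ΔPf4 mice Apom (ENSMUSG00000024391, mm10 chromosome 17, 35128997 to 35132050, reverse strand) was at 159, 209, 296 and 272 CPM on LF and at 88.2, 81.4, 72.2 and 116 CPM on AMLN. Every AMLN mouse lay below every LF mouse, and Apom fell by 1.39 on the log2 scale (SE 0.25, edgeR's quasi-likelihood test, Benjamini-Hochberg adjusted p = 0.044). The call was lost without LF replicate 2 or 4 or AMLN replicate 1, 2 or 3, with edgeR adjusted p from 0.070 to 0.16, and kept without any other single mouse. In TSP1F/F mice Apom was at 147, 137, 200 and 246 CPM on LF and 96.8, 59.2, 70.6 and 86.3 CPM on AMLN, again without overlap, a log2 fold change of -1.22 (SE 0.27) that did not pass (adjusted p = 0.099 with the same test).

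Apoa1, the main protein of HDL (mm10 chromosome 9, 46228580 to 46230466, forward strand), was listed for TSP1ΔPf4 mice at 13108, 14272, 23277 and 18841 CPM on LF and 10209, 5014, 6943 and 10917 CPM on AMLN. The groups did not overlap, LF replicate 3 was the highest, and the log2 fold change was -1.07 (SE 0.27). Apoa2, the other abundant HDL protein, was steadier between mice, at 7902, 7139, 7397 and 7025 CPM on LF and 4804, 4726, 4562 and 4929 CPM on AMLN. Its groups lay far apart relative to their spread, 7366 ± 390 (SD, n = 4) and 4755 ± 154 CPM, with a smaller log2 fold change of -0.63 (SE 0.15). Per length these were among the most abundant transcripts of the table, with mean FPKM of 11286 for Apoa2 (rank 3 of 3399) and 10374 for Apoa1 (rank 4).

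Apoc4, a minor protein of very low-density lipoprotein, had the most negative log2 fold change of the 10 apolipoprotein genes listed for TSP1ΔPf4 mice. It was at 622, 809, 3036 and 1698 CPM on LF and 577, 327, 262 and 610 CPM on AMLN. The highest AMLN mouse lay only just below the lowest LF mouse, and LF replicate 3 was at 3036 CPM, so the log2 fold change of -1.80 (SE 0.47) came with a wide spread. Apoc3, which inhibits lipoprotein lipase and the uptake of remnant particles, was at 2556, 2353, 4538 and 2715 CPM on LF and 1329, 1159, 1290 and 1652 CPM on AMLN. The AMLN mice lay in a narrow range below all LF mice, a log2 fold change of -1.16 (SE 0.24). Apoc1, beside Apoc4 on chromosome 7, was the 1 apolipoprotein gene whose groups overlapped, with means of 3464 ± 1989 and 1792 ± 632 CPM (SD, n = 4).

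Apoa5, which promotes triglyceride hydrolysis in plasma, and Apof, which inhibits lipid transfer between lipoproteins, were listed for both genotypes. Apoa5 was at 1271, 1787, 2035 and 1828 CPM on LF and 825, 1126, 749 and 959 CPM on AMLN in TSP1F/F mice. In TSP1ΔPf4 mice Apoa5 was at 1347, 1604, 2045 and 1855 CPM on LF and 1107, 904, 927 and 1345 CPM on AMLN. The groups did not overlap in either genotype, although AMLN replicate 4 and LF replicate 1 of the TSP1ΔPf4 mice were nearly equal, and the log2 fold changes were -0.92 (SE 0.27) and -0.68 (SE 0.21). Apof had means of 930 ± 42.7 and 523 ± 112 CPM in TSP1F/F mice and 845 ± 66.7 and 525 ± 92.3 CPM in TSP1ΔPf4 mice (SD, n = 4), with log2 fold changes of -0.83 and -0.69. Apoh, a phospholipid-binding glycoprotein, and Apon, next to Apof on chromosome 10, were also lower in TSP1ΔPf4 mice without overlap, by -0.61 and -0.47.

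**Figure D3:**
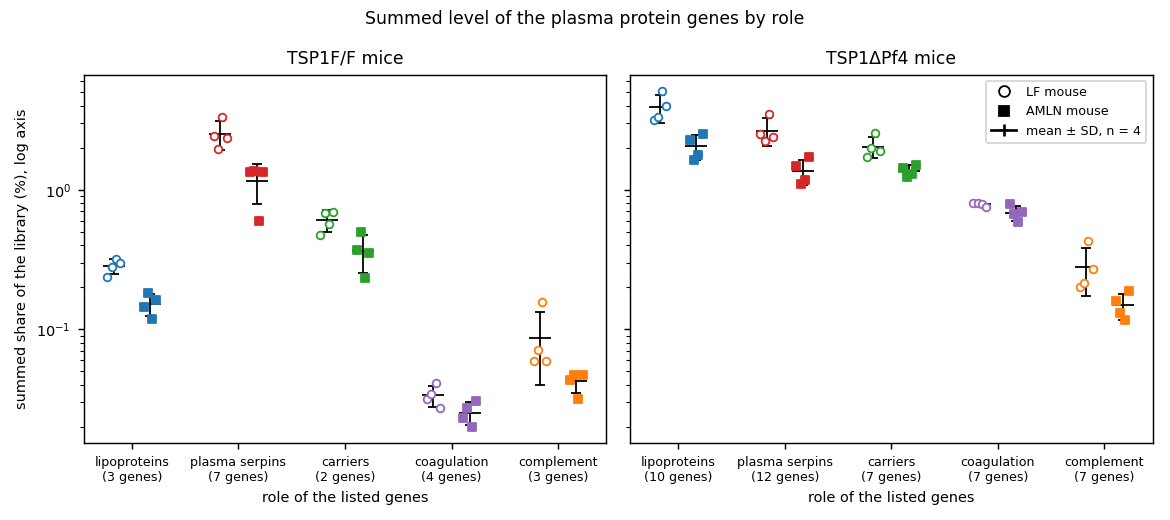
Summed share of the library, in percent on a log axis, of the listed genes of each role; open circles are LF mice, filled squares AMLN mice, and black marks the mean ± SD of 4 mice. Lipoprotein genes went from 0.284% to 0.152% in TSP1F/F mice (3 genes) and from 3.88% to 2.05% in TSP1ΔPf4 mice (10 genes); the tables list different genes, so levels are not compared between the panels.

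Serpins inhibit proteases by a suicide mechanism. Of the plasma serpins, 6 of 7 listed for TSP1F/F mice and 10 of 12 for TSP1ΔPf4 mice had lower means on AMLN (32.5% and 55.8% of all rows). Of these, 4 and 9 were lower without overlap (13.3% and 27.3% of all rows). Their summed share of the library went from 2.51% ± 0.584 to 1.16% ± 0.372 (SD, n = 4) in TSP1F/F mice and from 2.66% ± 0.586 to 1.37% ± 0.279 in TSP1ΔPf4 mice. Most of this share was Serpina3k (mm10 chromosome 12, 104338486 to 104346144, forward strand), one of the mouse relatives of antichymotrypsin and the gene with the second highest mean FPKM of the TSP1F/F table, 5976.

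Serpina3k was at 16993, 12013, 26439 and 14927 CPM on LF and 8249, 7663, 3277 and 8781 CPM on AMLN in TSP1F/F mice. In TSP1ΔPf4 mice it was at 14264, 11456, 23712 and 13748 CPM on LF and 8692, 4411, 5864 and 9511 CPM on AMLN. LF replicate 3 was the highest mouse of both genotypes and AMLN replicate 3 the lowest of the TSP1F/F mice, and the groups did not overlap. The log2 fold changes were -1.33 (SE 0.42) and -1.15 (SE 0.29).

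The genes Serpina1a, Serpina1c and Serpina1d are mouse copies of the gene of alpha-1-antitrypsin, the main inhibitor of neutrophil elastase, and lie within the cluster of 10 listed serpin genes on chromosome 12, from 103763594 to 104394257. Of the 100-base windows of their transcripts, 42.8%, 58.5% and 29.3% also occur in another gene, mainly in the other Serpina1 genes, so their counts are uncertain as single genes. In TSP1F/F mice Serpina1a had means of 1914 ± 156 and 1124 ± 315 CPM, Serpina1c 1050 ± 209 and 487 ± 210 CPM and Serpina1d 1830 ± 340 and 1097 ± 396 CPM (LF and AMLN, SD, n = 4). In TSP1ΔPf4 mice the means were 2141 ± 139 and 1287 ± 171 CPM for Serpina1a, 1231 ± 209 and 594 ± 168 CPM for Serpina1c and 2334 ± 392 and 1542 ± 165 CPM for Serpina1d. All 3 were lower on AMLN in both genotypes, with log2 fold changes from -1.11 to -0.60, and the groups overlapped only for Serpina1d in TSP1F/F mice.

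The promoters of these 3 copies are shown because all 3 genes were lower in both genotypes. They are given up to the base before the RefSeq start, on the gene's strand, from GRCm38.p6, the assembly named mm10. Capitals mark matches to TTGCNNAA, the letters of a C/EBP site, on either strand.
Serpina1a promoter, chr12:103863620-103863869, reverse strand: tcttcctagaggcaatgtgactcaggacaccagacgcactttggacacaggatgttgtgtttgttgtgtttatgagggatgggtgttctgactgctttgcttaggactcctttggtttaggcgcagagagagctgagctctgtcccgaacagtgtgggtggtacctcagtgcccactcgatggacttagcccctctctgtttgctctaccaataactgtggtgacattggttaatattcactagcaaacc
Serpina1c promoter, chr12:103904951-103905200, reverse strand: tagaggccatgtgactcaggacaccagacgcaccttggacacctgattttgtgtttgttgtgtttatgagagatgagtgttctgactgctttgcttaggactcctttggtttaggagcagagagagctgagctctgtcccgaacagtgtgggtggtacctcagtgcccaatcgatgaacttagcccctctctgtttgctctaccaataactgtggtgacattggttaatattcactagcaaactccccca
Serpina1d promoter, chr12:103773634-103773883, reverse strand: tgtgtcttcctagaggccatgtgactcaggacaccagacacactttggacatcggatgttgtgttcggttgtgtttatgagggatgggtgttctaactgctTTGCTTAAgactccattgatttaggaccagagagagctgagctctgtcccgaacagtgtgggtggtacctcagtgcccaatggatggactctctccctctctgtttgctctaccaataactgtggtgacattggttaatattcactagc
Within the bases shown, TTGCNNAA stood in Serpina1d and in neither of the other copies. In the search described below, which also takes 50 bases after the start, Serpina1a held it too. Aligned without gaps, the Serpina1a and Serpina1c promoters shared 233 of 244 bases (95.5%), and Serpina1d matched Serpina1a at 185 of 245 (75.5%). The Serpina1d promoter holds an extra base against the other copies, which puts part of the comparison out of register. Its ungapped figure therefore understates how alike the promoters are.

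Over the plasma protein genes, a RefSeq promoter of 250 bases before to 50 after the start was found for 44, for 41 of them within 300 bases of the listed gene start. TTGCNNAA, on either strand, stood in 13 of the 41 promoters (31.7%) and in 10.8% of all 32851 promoters. TTCNNNGAA, the letters of a STAT site, stood in 8 (19.5% against 8.3%). The single narrow spelling used for an NF-kB site stood in 0 (0.411% of all promoters), and TATAAA stood in 6 (14.6% against 13.6%). NF-kB sites spelled otherwise are not covered by that count, so it does not show that these promoters lack one. The spellings used here were settled after several had been searched, and related promoters share their letters, so the shares are descriptions. Genes lower and genes higher on AMLN both held C/EBP letters, among them Serpinc1 and Hpx on one side and Saa1, Saa2 and Saa3 on the other.

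Other serpins lower on AMLN included inhibitors of coagulation and fibrinolysis. Serpinc1, which encodes antithrombin, was at 2595, 2717, 3493 and 2597 CPM on LF and 1568, 1789, 1628 and 2045 CPM on AMLN in TSP1ΔPf4 mice, without overlap, a log2 fold change of -0.70 (SE 0.18). In TSP1F/F mice it had 2682 ± 332 and 1836 ± 570 CPM (SD, n = 4), where the groups overlapped. Serpind1, heparin cofactor II, and Serpinf2, alpha-2-antiplasmin, were listed for TSP1ΔPf4 mice only, with log2 fold changes of -0.73 and -0.58 and no overlap. Serpina11 was lower without overlap in both genotypes (log2 fold changes of -0.79 and -1.17), though 32.8% of its 100-base windows also occur in an overlapping gene model, Gm28577. Serpina12, vaspin, had means of 123 ± 60.6 and 55.0 ± 20.4 CPM in TSP1ΔPf4 mice, with 212 CPM in LF replicate 3.

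Against this direction, Serpina3f was higher on AMLN, at 0.0522, 2.63, 1.16 and 3.08 CPM on LF and 3.54, 3.28, 6.82 and 10.4 CPM on AMLN in TSP1F/F mice. In TSP1ΔPf4 mice it was at 2.82, 1.16, 1.34 and 1.80 CPM on LF and 3.44, 5.39, 2.36 and 6.37 CPM on AMLN. The groups did not overlap in the first and overlapped in the second, and the log2 fold changes were 1.79 (SE 0.81) and 1.30 (SE 0.41). Its neighbour in the cluster, Serpina3k, had a mean of 7120 CPM in the same AMLN-fed TSP1ΔPf4 mice. Serpina5, the protein C inhibitor, had no count in any LF mouse of the TSP1ΔPf4 group and reached at most 0.414 CPM on AMLN, and was too low to be tested.

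Carriers and matrix-binding proteins were lower on AMLN for 2 of 2 genes in TSP1F/F and 7 of 7 in TSP1ΔPf4 mice (32.5% and 55.8% of all rows). Their median log2 fold change in TSP1ΔPf4 mice was -0.55, with a range of -0.63 to -0.45. Ttr, transthyretin, carries thyroxine and retinol-binding protein. It was at 4276, 6298, 5162 and 6288 CPM on LF and 3241, 4545, 1997 and 3204 CPM on AMLN in TSP1F/F mice, and at 5536, 6004, 5667 and 4867 CPM on LF and 3093, 3725, 4177 and 4127 CPM on AMLN in TSP1ΔPf4 mice. The groups overlapped in TSP1F/F and not in TSP1ΔPf4 mice, with log2 fold changes of -0.76 (SE 0.33) and -0.55 (SE 0.17).

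Hpx, hemopexin, binds free heme. It was at 4894, 6584, 13187 and 7562 CPM on LF and 6554, 3892, 3944 and 6453 CPM on AMLN in TSP1ΔPf4 mice, so that LF replicate 1 lay among the AMLN mice and LF replicate 3 far above all others. Vtn, vitronectin, differed little between mice, with 2805 ± 204 and 1894 ± 124 CPM (SD, n = 4) and no overlap. Trf, the iron carrier transferrin, had 1624 ± 197 and 1067 ± 218 CPM without overlap, but 53.2% of its 100-base windows also occur in the gene model Gm20425. Itih1, Itih2 and Itih3, the heavy chains of inter-alpha-trypsin inhibitor that bind hyaluronan, had log2 fold changes of -0.47, -0.45 and -0.50 in TSP1ΔPf4 mice, and only Itih3 did not overlap. Itih1, also listed for TSP1F/F mice, had -0.49 there with overlap.

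Coagulation genes were lower for 2 of 4 in TSP1F/F and 5 of 7 in TSP1ΔPf4 mice (32.5% and 55.8% of all rows). In TSP1ΔPf4 mice the vitamin K-dependent factors F2 (prothrombin), F7, F10 and Proc (protein C), together with Kng1 (kininogen), were each lower without overlap. Their log2 fold changes lay between -0.67 for F10 and -0.39 for Kng1. Their LF mice differed little, for instance 549 ± 26.6 CPM for Proc against 373 ± 24.6 CPM on AMLN (SD, n = 4). In TSP1F/F mice F11, a factor of the contact pathway, was at 35.6, 24.3, 38.1 and 35.1 CPM on LF and 19.3, 14.7, 13.9 and 13.2 CPM on AMLN. F11 was lower in every AMLN mouse, a log2 fold change of -1.12 (SE 0.26), while F9 overlapped at 266 ± 61.6 and 176 ± 49.2 CPM.

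Pros1, protein S, the cofactor of protein C, went the other way. It was at 35.3, 39.5, 23.0 and 33.3 CPM on LF and 54.0, 51.0, 58.2 and 55.8 CPM on AMLN in TSP1F/F mice, and at 49.2, 46.8, 40.5 and 52.6 CPM on LF and 69.0, 75.8, 58.9 and 48.1 CPM on AMLN in TSP1ΔPf4 mice. The AMLN mice were all higher in TSP1F/F mice, whereas AMLN replicate 4 of the TSP1ΔPf4 mice lay among the LF mice. The log2 fold changes were 0.74 (SE 0.24) and 0.41 (SE 0.20). F8, made mainly by endothelial cells, was also higher in TSP1F/F mice without overlap, at 4.11 ± 1.49 and 6.92 ± 0.932 CPM (SD, n = 4).

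Fga, the alpha chain of fibrinogen and the 1 abundant plasma protein gene that was higher on AMLN, was at 2137, 2061, 1513 and 1667 CPM on LF and 3557, 2416, 2114 and 1990 CPM on AMLN in TSP1ΔPf4 mice. The groups overlapped, and AMLN replicate 1 was the highest. The log2 fold change of 0.45 (SE 0.23) was 0.24 (SE 0.20) without AMLN replicate 1. The other fibrinogen chains were not analysed here.

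Serum amyloid A proteins are acute phase apolipoproteins. Saa1 (mm10 chromosome 7, 46740497 to 46742980, reverse strand) was at 18.8, 23.7, 73.9 and 22.6 CPM on LF and 384, 37.9, 25.7 and 67.7 CPM on AMLN in TSP1ΔPf4 mice. Its neighbour Saa2 (chromosome 7, 46751790 to 46754313, forward strand) was at 7.12, 10.1, 15.6 and 7.43 CPM on LF and 176, 21.2, 13.4 and 32.7 CPM on AMLN. In both genes AMLN replicate 1 stood above all other mice, and apart from it the groups overlapped. Without AMLN replicate 1 the AMLN means were 43.8 ± 21.6 CPM for Saa1 and 22.4 ± 9.73 CPM for Saa2 (SD, n = 3), against 34.7 ± 26.2 and 10.1 ± 3.95 CPM on LF (SD, n = 4). The log2 fold change went from 1.89 (SE 0.78) to 0.33 (SE 0.50) for Saa1 and from 2.59 (SE 0.71) to 1.15 (SE 0.37) for Saa2. The 2 genes share 9.0% and 8.6% of their 100-base windows, so that a small part of the reads cannot be assigned to one of them.

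Saa3, expressed by macrophages as well as hepatocytes, was listed for TSP1F/F mice, at 4.38, 7.83, 12.3 and 6.57 CPM on LF and 18.3, 14.95, 7.55 and 45.8 CPM on AMLN. AMLN replicate 3 lay among the LF mice, and the log2 fold change was 1.48 (SE 0.53). The promoters of Saa1, Saa2 and Fga, acute phase genes with higher means on AMLN, are given on the gene's strand from the same assembly. Capitals mark TTGCNNAA in all 3 and TTCNNNGAA in Fga. That of Saa1 ends at the base before the RefSeq start. Those of Saa2 and Fga end at the base before the listed gene start, which lies upstream of the RefSeq start. The bases between these starts are not shown.
Saa1 promoter, chr7:46742981-46743230, reverse strand: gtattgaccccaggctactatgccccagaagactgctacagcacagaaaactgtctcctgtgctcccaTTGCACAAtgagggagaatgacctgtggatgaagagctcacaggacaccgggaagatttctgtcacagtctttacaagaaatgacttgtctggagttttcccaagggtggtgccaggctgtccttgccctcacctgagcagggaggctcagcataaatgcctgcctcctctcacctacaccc
Saa2 promoter, chr7:46751583-46751789, forward strand: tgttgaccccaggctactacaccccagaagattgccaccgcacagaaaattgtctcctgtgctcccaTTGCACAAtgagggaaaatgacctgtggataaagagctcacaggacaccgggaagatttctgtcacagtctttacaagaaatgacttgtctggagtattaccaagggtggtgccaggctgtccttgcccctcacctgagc
Fga promoter, chr3:83025903-83026075, forward strand: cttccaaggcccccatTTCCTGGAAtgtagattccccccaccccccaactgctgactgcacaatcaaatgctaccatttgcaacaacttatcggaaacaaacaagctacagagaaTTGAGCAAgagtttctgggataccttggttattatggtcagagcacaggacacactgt
The Saa1 and Saa2 promoters were alike at 186 of 207 bases (89.9%) and held the same C/EBP letters.

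**Figure D4:**
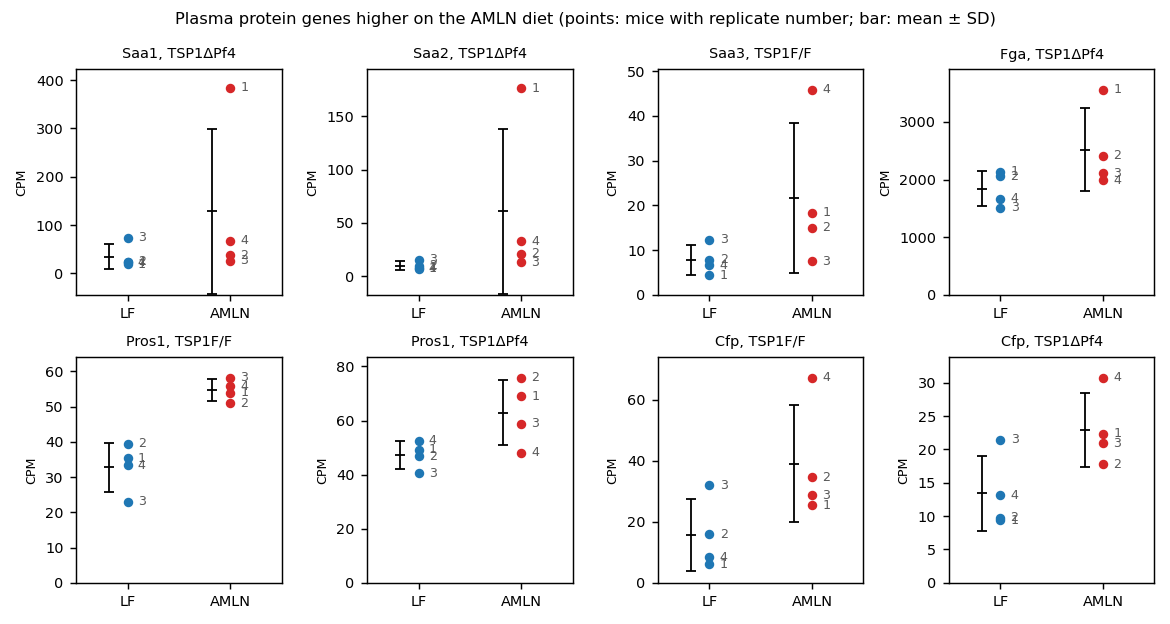
CPM of 6 plasma protein genes with higher means on AMLN; points are mice with their replicate numbers, and the bar is the mean ± SD of 4 mice. In Saa1 and Saa2 AMLN replicate 1, at 384 and 176 CPM, sits above all other mice.

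Complement genes were lower for 2 of 3 in TSP1F/F and 6 of 7 in TSP1ΔPf4 mice (32.5% and 55.8% of all rows). C8b and C8g encode chains of C8, a component of the membrane attack complex. C8b was at 287, 279, 770 and 277 CPM on LF and 145, 83.7, 78.5 and 121 CPM on AMLN in TSP1F/F mice, without overlap, a log2 fold change of -1.92 (SE 0.40) that was the most negative of any plasma protein gene there. It was not called by edgeR with library totals, and was called by edgeR with TMM and by DESeq2 with either set of size factors. In TSP1ΔPf4 mice C8b was at 235, 231, 496 and 308 CPM on LF and 191, 83.3, 91.9 and 244 CPM on AMLN, with overlap, a log2 fold change of -1.06 (SE 0.38). C8g, listed for TSP1ΔPf4 mice, was at 734, 731, 1826 and 904 CPM on LF and 325, 341, 282 and 488 CPM on AMLN without overlap, a log2 fold change of -1.55 (SE 0.32). LF replicate 3 was the highest mouse in each of these 3 sets of values.

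Mbl1, a mannose-binding lectin that starts the lectin pathway, overlapped in both genotypes, with 447 ± 214 and 278 ± 58.9 CPM in TSP1F/F and 336 ± 160 and 192 ± 70.4 CPM in TSP1ΔPf4 mice (SD, n = 4). Mbl2 was lower without overlap in TSP1ΔPf4 mice, as was C2, a protease of the classical pathway, of whose 100-base windows 35.5% also occur in the overlapping model Gm20547. Cfi, a protease that inactivates C3b and C4b, overlapped at 740 ± 192 and 530 ± 82.6 CPM. The exception was Cfp, properdin, which stabilises the alternative pathway convertase and is made by myeloid cells. Cfp was at 6.0, 15.9, 32.0 and 8.41 CPM on LF and 25.4, 34.6, 28.7 and 67.2 CPM on AMLN in TSP1F/F mice, with log2 fold changes of 1.32 (SE 0.51) there and 0.77 (SE 0.30) in TSP1ΔPf4 mice. LF replicate 3 lay among the AMLN mice in both genotypes.

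Of the genes whose products stay inside cells, the collagen chaperone Serpinh1 was higher on AMLN without overlap in both genotypes, at 9.95 ± 3.80 and 20.3 ± 6.03 CPM in TSP1F/F and 9.98 ± 0.936 and 14.9 ± 4.50 CPM in TSP1ΔPf4 mice (SD, n = 4), where the highest LF and the lowest AMLN mouse were both at 10.98 CPM when rounded. Serpina3g, which is expressed in immune cells, had log2 fold changes of 1.503 (SE 0.48) and 0.89 (SE 0.28) with overlap. The cytosolic Serpinb6a and Serpinb6b, listed for TSP1F/F mice, had 1.27 (SE 0.42) and 1.17 (SE 0.43), also with overlap. Apoo, a protein of the mitochondrial inner membrane, was lower in TSP1F/F mice (log2 fold change of -0.92, SE 0.33) and Mblac1 in TSP1ΔPf4 mice (-1.27, SE 0.41), both without overlap. Of the 100-base windows of Apoo, 36.0% also occur in Apoo-ps.

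For the 18 genes listed for both genotypes the diet differences can be set side by side, since no mouse is shared between them. A gene is in this set only if its unadjusted p for the diet was under 0.05 in both genotypes. Genes that differed in a single genotype are left out. The agreement in direction and the interaction counts below therefore follow in part from this selection. The means went the same way in both genotypes for 18 of 18 genes, as they did for 93.5% of the 752 rows in both tables, and were lower on AMLN in both for 13 of 18 (29.8% of rows) and higher for 5 (63.7% of rows). The genes lower in both were Apoa5, Apof, Apom, C8b, Itih1, Mbl1, Serpina11, Serpina1a, Serpina1c, Serpina1d, Serpina3k, Serpinc1 and Ttr, and those higher in both Cfp, Pros1, Serpina3f, Serpina3g and Serpinh1. Of the 16 that encode secreted proteins, 13 were lower in both and 3 higher. The test of the difference between the diet responses, the interaction term, called 0 of 18 by edgeR with 0 at an unadjusted p under 0.05, against 0.409% and 15.0% of 734 rows tested. DESeq2 also called 0 of 18, against 5.99% of rows. The interaction estimates ran from -0.61 for Serpina3g to 0.86 for C8b with SE from 0.31 to 0.96, so responses that differ by such amounts cannot be told from equal ones at this number of mice.

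The genotypes were compared directly on each diet. On AMLN 0 of 18 genes were called by edgeR (9.0% of 733 rows tested) and 1, Cfp, had an unadjusted p under 0.05 (25.2% of rows), while on LF 0 of 18 were called (0.0% of 640 rows) and 0 had one (6.88% of rows). DESeq2 called 0 of 18 on either diet (9.96% of rows on AMLN and 0.156% on LF). The median log2 difference on AMLN, TSP1ΔPf4 over TSP1F/F, was 0.11 for the 18 genes and -0.38 for all rows tested. TMM scaling moved both up, to 0.38 and -0.10. No plasma protein gene was without overlap between the genotypes on AMLN, against 12.1% of the 752 rows lower and 2.53% higher in TSP1ΔPf4 mice.

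Cfp was at 25.4, 34.6, 28.7 and 67.2 CPM in AMLN-fed TSP1F/F mice and 22.3, 17.8, 20.9 and 30.7 CPM in AMLN-fed TSP1ΔPf4 mice. The highest TSP1ΔPf4 mouse lay within the TSP1F/F range, and the log2 difference was -0.76 (SE 0.34, edgeR with Benjamini-Hochberg adjusted p = 0.18). C8b had the largest positive difference on AMLN, 0.51 (SE 0.38), with means of 153 ± 78.3 CPM in TSP1ΔPf4 and 107 ± 31.4 CPM in TSP1F/F mice (SD, n = 4). On LF, Pros1 was at 49.2, 46.8, 40.5 and 52.6 CPM in TSP1ΔPf4 mice and 35.3, 39.5, 23.0 and 33.3 CPM in TSP1F/F mice. These groups did not overlap (3.19% of rows), and the log2 difference was 0.53 (SE 0.24, edgeR adjusted p = 0.68; two-sided exact permutation test of the means, p = 0.0286, the smallest that 4 against 4 mice can give, and the lowest of 36 such tests).

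Among abundant secreted proteins the difference between genotypes on AMLN varied from gene to gene. It was nearest to 0 for Apof, at 523 ± 112 CPM in TSP1F/F and 525 ± 92.3 CPM in TSP1ΔPf4 mice (SD, n = 4), and for Serpina3k, at 6993 ± 2519 and 7120 ± 2388 CPM. Farther apart were Serpina1d, at 1097 ± 396 and 1542 ± 165 CPM (log2 difference of 0.49, SE 0.32), and Mbl1, at 278 ± 58.9 and 192 ± 70.4 CPM (-0.53, SE 0.31). The SE of the 18 log2 differences on AMLN ran from 0.25 to 0.47, and even the difference of -0.76 for Cfp did not pass the test with 4 mice a group. The 18 genes summed to 1.90%, 2.10%, 0.994% and 1.91% of the AMLN libraries of TSP1F/F mice and 1.94%, 1.57%, 1.70% and 2.28% of those of TSP1ΔPf4 mice, overlapping ranges.

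**Figure D5:**
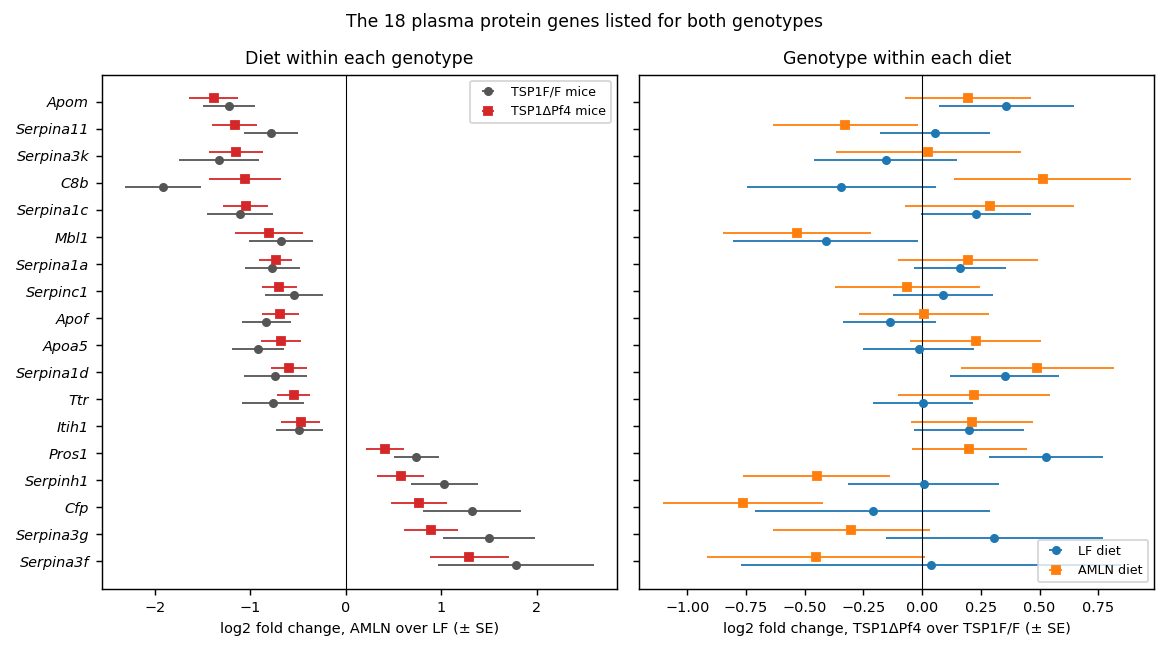
Log2 fold changes with SE for the 18 plasma protein genes in both tables, left for AMLN over LF within each genotype and right for TSP1ΔPf4 over TSP1F/F within each diet. On the left 13 genes lie below 0 and 5 above in both genotypes; on the right no gene was called.

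Plasma protein and pathway genes that the name rule does not take differed in both directions, in tables where 67.5% of all rows had a higher mean on AMLN in TSP1F/F mice and 44.2% in TSP1ΔPf4 mice. Of 9 further complement genes listed for TSP1F/F mice 8 were higher on AMLN and 2 of them, C1qc and Itgax, passed the test (2.48% of rows tested). Of 13 for TSP1ΔPf4 mice 9 were higher and 3, C1qc, Itgb2 and Vsig4, passed (2.98% of rows tested). C1qc, a chain of C1q made by macrophages, rose from 11.4 to 47.7 CPM in TSP1F/F mice and from 11.5 to 31.1 CPM in TSP1ΔPf4 mice (log2 fold changes of 2.06 and 1.44). The macrophage complement receptor genes Vsig4 and Itgb2 rose by 1.16 and 1.83 in TSP1ΔPf4 mice and had 1.44 and 2.92 in TSP1F/F mice without a call. Itgax rose by 5.47 in TSP1F/F mice and had 2.40 in TSP1ΔPf4 mice without a call. Not called in either genotype were C1qa, C1qb, C3ar1 and C5ar1, with log2 fold changes from 1.15 to 2.44.

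Coagulation and fibrinolysis genes outside the rule were higher for 7 of 9 in TSP1F/F and 3 of 6 in TSP1ΔPf4 mice. Klkb1, plasma prekallikrein, made in hepatocytes, passed the test in TSP1ΔPf4 mice, from 270 to 132 CPM (log2 fold change of -1.04), and had -0.92 in TSP1F/F mice. Not called were F2r (0.74 and 0.62), Plau (3.33 and 1.27) and Anxa2 (1.99 and 1.27). The largest values among genes listed once were 3.30 for F13a1 and 3.25 for Plat in TSP1F/F mice and -1.42 for Vkorc1 in TSP1ΔPf4 mice, none of them called.

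Of the other plasma and acute phase proteins 7 of 11 were lower in TSP1F/F and 13 of 17 in TSP1ΔPf4 mice. The acute phase gene Orm3 rose in both, from 1.80 to 20.7 CPM (log2 fold change of 3.52) and from 1.10 to 5.63 CPM (2.34), and Mup20 fell by 1.60 on the log2 scale in TSP1ΔPf4 mice. Lcn2 rose in TSP1ΔPf4 mice from 5.96 to 40.6 CPM (2.77), with AMLN replicate 1 at 90.2 CPM, and without that mouse the AMLN mean was 24.1 CPM and the call was lost (2.01, edgeR adjusted p = 0.080). On AMLN, Orm3 and Orm2 were lower in TSP1ΔPf4 than in TSP1F/F mice, by log2 differences of -1.88 and -1.58 (edgeR with Benjamini-Hochberg adjusted p of 0.018 and 0.042). In that comparison 66 of 733 rows tested (9.0%) were called, 62 of them lower in TSP1ΔPf4 mice. Leaving out 1 mouse, 22 to 84 rows were called. Not called for the diet in either genotype were Hamp (-1.15 and -2.46), Rbp4 (-0.74 and -0.67), Pon1 (-0.79 and -0.75), Igfbp2 (-1.22 and -0.71), Mup3 (-1.53 and -1.54), Orm2 (2.74 and 1.82) and Cd14 (2.11 and 1.75). Lcn2 had 4.60 in TSP1F/F mice without a call.

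Lipoprotein handling genes had higher means on AMLN for 5 of 7 in TSP1F/F mice (67.5% of all rows) and 6 of 7 in TSP1ΔPf4 mice (44.2% of all rows). Lpl, lipoprotein lipase, rose from 11.6 to 176 CPM in TSP1F/F mice (log2 fold change of 3.92) and from 15.1 to 64.8 CPM in TSP1ΔPf4 mice (2.11). On AMLN, Lpl was lower in TSP1ΔPf4 mice by a called difference of -1.44 (edgeR with Benjamini-Hochberg adjusted p = 0.031, with 9.0% of rows tested called). Cd36, a fatty acid transporter, rose in TSP1ΔPf4 mice from 141 to 308 CPM (1.13) and had 0.80 in TSP1F/F mice. Abcg1 (1.85 and 1.47) and Vldlr (1.44 and 1.01) were not called. Of the 27 transcription factors and cytokine receptors on the list, 5 were listed for TSP1F/F mice, 1 of them higher, and 3 for TSP1ΔPf4 mice, 2 of them higher, with 0 called: Nr1h4 had -0.66 and Creb3l3 -0.66 in TSP1F/F mice, and Hnf4a 0.60, Foxa3 -0.75 and Il6st 0.41 in TSP1ΔPf4 mice. All 13 diet calls of genes on these pathway lists, 4 in TSP1F/F and 9 in TSP1ΔPf4 mice, were lost on leaving out at least 1 of the 8 mice, with edgeR adjusted p up to 0.16 and 0 changes of sign.

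The positions of the plasma protein genes grouped some of these differences. Of the 55 genes, 24 lay within 200 kb of another, in 7 clusters. The chromosome 12 serpin cluster held genes in both directions, Serpina3f and Serpina3g higher and Serpina3k and Serpina3m lower, whose models overlap in the case of Serpina3k and Serpina3m. In the clusters of Apoa1, Apoc3 and Apoa5 on chromosome 9, Apoc4 and Apoc1 on chromosome 7, Apon and Apof on chromosome 10, F7 and F10 on chromosome 8, and Itih3 and Itih1 on chromosome 14 all listed genes were lower on AMLN. All of these are listed for TSP1ΔPf4 mice, where 39 of 48 plasma protein genes had lower means. In the cluster of Saa3, Saa1 and Saa2 on chromosome 7 all had higher means. Saa3 was listed for TSP1F/F mice only, and Saa1 and Saa2 for TSP1ΔPf4 mice only.

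LF replicate 3 was the highest LF mouse for 15 of 25 genes in TSP1F/F and 29 of 48 in TSP1ΔPf4 mice. It was more than 1.5 times above the next LF mouse for 7 and 12 genes, of which C8b, Cfp, Mbl1 and Serpina3k were shared. AMLN replicate 3 was the lowest AMLN mouse for 15 of 25 and 20 of 48 genes. Leaving out AMLN replicate 3, 10 of 25 and 31 of 48 genes were lower without overlap (14.1% and 28.1% of all rows). Leaving out a mouse can only keep or raise such a count, so it does not show the part of that mouse. The mean summed share on LF was 2.01 times that on AMLN in TSP1F/F mice and 1.71 times in TSP1ΔPf4 mice. These ratios were 1.76 and 1.65 without AMLN replicate 3, and 1.84 and 1.55 without LF replicate 3. The number of genes with a lower mean stayed at 16 and 39 whichever mouse was left out.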

How the data were processed

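Total liver RNA of 16 mice was sequenced by the authors as paired reads of 150 bases. According to the paper, reads were aligned with STAR 2.7.8a to mm10, while the submitters' processing notes list HISAT2 and DESeq2 with mm10. The counting program, annotation release and strand setting are not given in the sources used here. The deposited tables give counts per gene, signal (counts that the authors divided by 1 size factor per library) and FPKM (counts that the authors divided by gene length and library total). The deposited log2 fold changes hold the authors' comparisons and were not used. The deposited p-values were used only to see how rows had been selected and over how many genes the authors had adjusted (16784 and 13927). All 48 columns of single mice were matched, and 0 were left out.

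Library totals were computed from counts, lengths and FPKM. Low counts were removed by filterByExpr, and the others were fitted by edgeR 4.0.16 (glmQLFit, glmQLFTest) in R 4.3.3, with limma 3.58.1 and DESeq2 1.42.0 as an alternative. Diet comparisons were adjusted by Benjamini-Hochberg over the number of genes the authors had adjusted over, and genotype and interaction tests over the rows tested among those in both tables. Because the dispersion came from selected rows, p-values of the diet are not independent of the selection. The test was checked on simulated data only for changes larger than any diet change of the plasma protein genes. It was not checked for changes of their size. Intervals and spreads are between mice. Named were all members in both tables, all called, the 8 largest changes each way and the 5 highest FPKM of each table (35 of 55), with 20 others given in groups or singly. Members, roles, the 5 pathway lists and the 11 marker lists were chosen with earlier results of these data known. A few pathway genes were left out of the lists and are not reported here. Coordinates are those of the tables (mm10), and equal GENCODE M21 for 52 members. Promoters are from RefSeq, and proteins were not used here.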

Additional observations from a re-analysis of the deposited data

Results flagged for a closer look

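In 10 of 106 groups of 4 mice (9.43%), 1 mouse lay far from the other 3 by Dixon's criterion. These groups cover only the named genes, chosen in part for the largest changes, and come from the same 16 mice. For independent, normally distributed values the criterion would flag about 1 in 20, so that rate does not test this share. LF replicate 3 was the high mouse in 7 of them. In TSP1F/F mice it had 34.96 CPM of Apoo against 22.7 to 23.4 CPM in the other LF mice, and 770 CPM of C8b against 277 to 287 CPM. In TSP1ΔPf4 mice it had 4538 CPM of Apoc3 against 2353 to 2715 CPM, 1826 CPM of C8g against 731 to 904 CPM, 73.9 CPM of Saa1 against 18.8 to 23.7 CPM, 90.7 CPM of Serpina11 against 58.2 to 63.7 CPM, and 3493 CPM of Serpinc1 against 2595 to 2717 CPM.

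AMLN replicate 1 of the TSP1ΔPf4 mice had 384 CPM of Saa1 against 25.7 to 67.7 CPM in the other AMLN mice, and 176 CPM of Saa2 against 13.4 to 32.7 CPM. AMLN replicate 1 of the TSP1F/F mice was low for F8, at 5.54 CPM against 7.19 to 7.50 CPM.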

How the results depend on the processing

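The number of plasma protein genes called depended on tool and scaling. The share of all rows called under the same setting is given in brackets. In TSP1F/F mice, with 0 called, DESeq2 called 11 (35.4%), DESeq2 with the authors' size factors 7 (26.9%), TMM 1, C8b (2.96%), and adjustment over the table alone 17 (53.6%). In TSP1ΔPf4 mice, with 1 lower called, DESeq2 called 14, 6 higher and 8 lower (44.5%), DESeq2 with the authors' size factors 25, 3 and 22 (34.7%), TMM 5, 1 and 4 (6.41%), totals without mitochondrial rows 9, all lower (8.8%), no filter 2 (2.77%) and adjustment over the table alone 37 (70.8%). Among all rows of that table the calls, 45 higher and 47 lower, became 160 and 38 with TMM. Leaving out 1 mouse called 0 to 5 in TSP1ΔPf4 mice, 4 without LF replicate 3 (5.38%) and 5 without AMLN replicate 4 (5.83%), and 0 in TSP1F/F mice. With the replicate number as a block, the calls were 0 in TSP1F/F and 0 in TSP1ΔPf4 mice. Correlations of same-numbered mice ran from -0.49 to 0.50. Of 8 libraries, 2 correlated best with their own number for diet in TSP1F/F mice and 0 for diet in TSP1ΔPf4 mice. For genotype it was 6 on AMLN and 5 on LF. The main fits did not take the numbers as pairs, although most libraries matched by number between the genotypes. With the block, the rows called between genotypes on AMLN went from 66 of 733 to 118 of 748 tested. The cause of this match was not tested. In the genotype and interaction tests 0 were called under every alternative run. No named gene changed the sign of its diet difference under any alternative, while the sign changed under at least 1 for 4 of 18 genes between genotypes on AMLN, 9 of 18 on LF and 9 of 18 in the interaction. On AMLN, 7 of 18 genes were lower in TSP1ΔPf4 mice, and 5 to 9 under the alternatives. DESeq2 with the authors' size factors, totals without mitochondrial rows and the values without single mice in the report were chosen after seeing the data. The causes of these shifts were not tested. With 4 mice a group and rows selected by the authors, a gene without a call is not shown to be unchanged.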
